A study of Mus musculus with 28 samples.

Results

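The response of the mouse lung to ozone, an oxidant gas that reacts with the fluid and cells lining the airways, was compared between 4 exposures and 1 exposure across all genes. For each gene the log2 fold change of ozone against sham on day 1 was subtracted from the same fold change on day 4, and this quantity is called the response difference. It used 14 of the 28 libraries of the series. They came from lung homogenates of male wild-type C57BL/6 mice aged 8 to 12 weeks, breathing either sham air or ozone at 2 ppm for 3 hours per exposure. Sham day 1 and ozone day 1 held 4 libraries each, after 1 exposure, and sham day 4 and ozone day 4 held 3 libraries each, after 4 exposures. None of these 14 received carbon black, which other libraries of the series did. Means are given ± SD over the libraries of a group (n = 4 on day 1, n = 3 on day 4) and response differences as log2 values ± SE. The direct comparison of ozone day 4 with ozone day 1 is given after the response differences, for several lists and a few genes.

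Several features of the design limit what the comparison can show. The number of exposures and the day of collection change together and cannot be told apart, and how long after the last exposure the lungs were taken is not stated. Whether different libraries are different mice is not stated in the labels, so the tests may rest on technical spread alone. A homogenate averages all cells of the lung, so fewer cells of a type and less RNA per cell cannot be told apart.

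As background, inhaled ozone oxidizes lipids and proteins of the airway lining fluid and injures ciliated cells and alveolar type 1 cells. Surviving club cells and alveolar type 2 cells divide and differentiate to replace them, and macrophages clear debris. NRF2, a transcription factor released when its partner KEAP1 is oxidized, drives genes of glutathione synthesis and detoxification, and glucocorticoids released during stress act through the glucocorticoid receptor on genes such as Tsc22d3, Fkbp5 and Per1. When exposure is repeated, rodents are known to lose part of the acute response to ozone, which is called adaptation.

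The 14 libraries held 5.92 to 9.34 M estimated counts, with a median of 7.38 M, and 3 counts in a library correspond to 0.321 to 0.507 CPM (counts scaled to a common library size), a limit that covers counting error only. Lung markers were present throughout: Sftpc, the alveolar type 2 surfactant gene, lay between 11880 and 18170 CPM and Scgb1a1, the club cell secretory gene, between 19390 and 50470 CPM over the 14 libraries. In a principal component analysis of the 14 libraries, the first component held 30.2% of the variance and placed sham libraries at -38.2 to -14.1, ozone day 1 at 6.2 to 25.0 and ozone day 4 at 39.6 to 45.6. The second component held 17.1% and set ozone day 1 (-38.6 to -19.5) apart from ozone day 4 (20.5 to 24.5). Genes of other tissue set libraries apart: 10 skeletal muscle genes summed to 2577 CPM in sham day 1 replicate 2 and 1316 CPM in ozone day 1 replicate 2, against 8.58 to 26.6 CPM in the other 12, and 9 adipose genes summed to 1269 CPM in sham day 1 replicate 2.

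The response to 4 exposures differed from that to 1 exposure at 631 genes. Of 14887 genes tested, these passed an adjusted p of 0.05 (4.24%) in the response difference by edgeR's quasi-likelihood test, 351 of them higher (2.36%) and 280 lower (1.88%) after 4 exposures, and 319 had a log2 difference of at least 1. The median over all genes tested was 0.00. Ozone changed 1704 genes on day 1 (11.4%), 1014 higher (6.81%) and 690 lower (4.63%), and 3089 on day 4 (20.7%), 1739 higher (11.7%) and 1350 lower (9.07%). These shares over all genes tested are the background for the counts of list members below. The sham groups of the 2 days, by contrast, differed at 0 genes in edgeR, DESeq2 and limma-voom, with 1473, 1482 and 1481 genes at an unadjusted p under 0.05. Without 1 library the count for the response difference ranged from 365 to 624. It fell by more than 1.5 times without sham day 4 replicate 2 (368), ozone day 1 replicate 1 (365), and ozone day 4 replicates 1 (397), 2 (385) and 3 (367), and with only the 4 sham and ozone groups in the fit it was 1125. The day 1 count was 904 without ozone day 1 replicate 4 and 2686 with only these 4 groups. Calls in the response difference that did not hold without a low-count filter, among the genes named below, were those of Alb, Cd68, Cd74, Col3a1, Dusp1, Ednrb, Fabp5, Hbb-bs, Lpcat1, Mcoln3, Mki67, Mmp2, Pdia3, Ptprb, Tuba1a and Ucp1. With limma-voom those of Alb, Cd68, Cd74, Clca3a1 and Ucp1 did not hold, and with the 4 groups alone those of Alb, Cd74 and Ucp1.

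Responses on the 2 days, which share no library, overlapped in part. Of the genes that passed on either day, 831 passed on both, which is 48.8% of the day 1 list and 26.9% of the day 4 list. Of these 831, 523 were higher and 278 lower on both days, and 30 went in opposite directions. A further 873 passed on day 1 only and 2258 on day 4 only, and across the 14887 genes, which are not independent replicates, the fold changes of the 2 days had a Pearson r of 0.42.

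**Figure D1:**
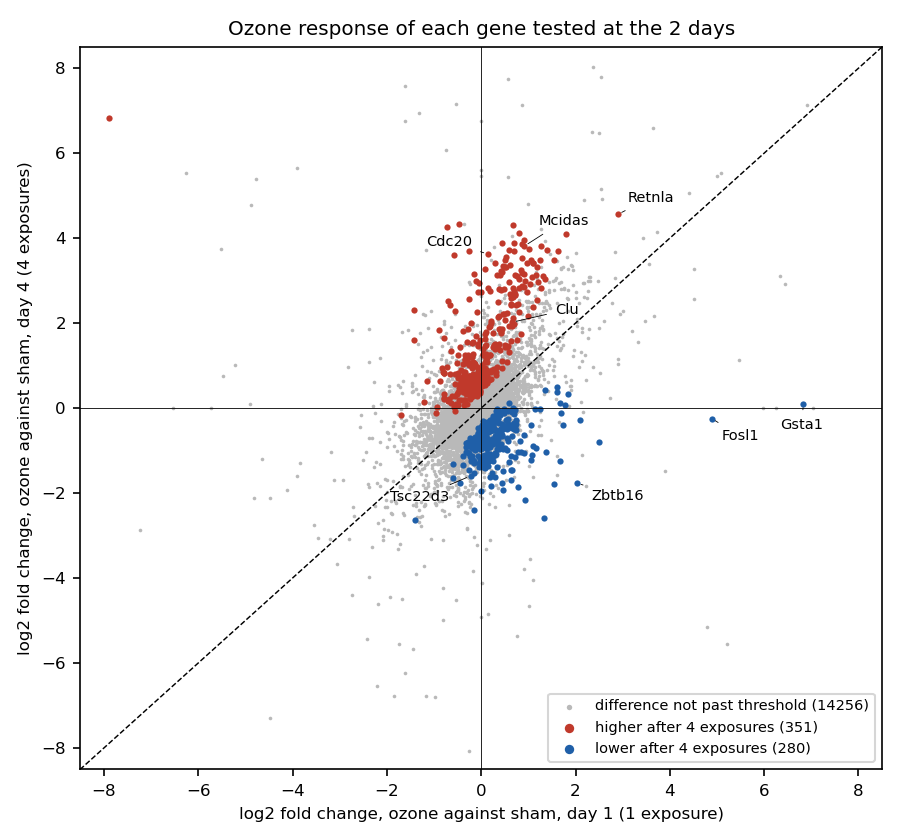
Log2 fold change of ozone against sham on day 1 (horizontal axis) and day 4 (vertical axis) for each gene tested, with 7 genes outside the axes. Red points (351 genes) had a higher and blue points (280) a lower response after 4 exposures, and the dashed line marks equal responses: Retnla and Clu lie above it and Fosl1, Gsta1 and Zbtb16 below.

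Genes of cell division were higher after 4 exposures, and of the 43 gene lists examined the mitosis list had the highest median difference. Mitosis and G2/M genes, which build the spindle and drive entry into and exit from mitosis, passed as higher in the response difference at 23 of 24 members, against 2.36% of all genes tested, with a median log2 difference of 2.34 and a range of 1.47 to 3.49. On day 1, 9 of the 24 were higher with ozone (median log2 0.66), and on day 4 all 24 were (median 3.11). The one member outside the threshold was Ttk, a spindle checkpoint kinase, at 1.47 ± 0.65 (adjusted p 0.24). The promoters of 3 of these genes and of Mcm5, a replication gene, are shown as examples of 2 lists of cell cycle genes, 1 with 23 of 24 and 1 with 1 of 23 members past the threshold. Each is the 250 bases before the RefSeq start (GRCm38.p6), 5′ to 3′ on the gene's strand, with the letters TTTGAA (the core of the cell cycle homology region) and CCAAT (bound by NF-Y), on either strand, in capitals.
Cdc20 (chr4:118437344-118437593, minus strand): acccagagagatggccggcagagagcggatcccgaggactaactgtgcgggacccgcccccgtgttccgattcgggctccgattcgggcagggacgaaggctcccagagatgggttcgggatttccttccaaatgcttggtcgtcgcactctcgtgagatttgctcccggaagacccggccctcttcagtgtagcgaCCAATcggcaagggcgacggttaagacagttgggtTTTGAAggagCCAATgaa
Ccnb1 (chr13:100786487-100786736, minus strand): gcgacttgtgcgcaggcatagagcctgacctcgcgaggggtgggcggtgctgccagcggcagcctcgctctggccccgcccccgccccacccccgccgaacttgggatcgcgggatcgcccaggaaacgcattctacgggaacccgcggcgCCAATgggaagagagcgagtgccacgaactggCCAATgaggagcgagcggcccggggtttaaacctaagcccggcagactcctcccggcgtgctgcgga
Ccnb2 (chr9:70421555-70421804, minus strand): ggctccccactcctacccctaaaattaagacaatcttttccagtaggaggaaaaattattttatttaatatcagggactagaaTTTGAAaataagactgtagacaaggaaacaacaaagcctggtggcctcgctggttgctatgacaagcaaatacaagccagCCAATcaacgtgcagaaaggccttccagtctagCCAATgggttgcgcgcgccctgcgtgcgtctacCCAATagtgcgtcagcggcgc
Mcm5 (chr8:75109259-75109508, plus strand): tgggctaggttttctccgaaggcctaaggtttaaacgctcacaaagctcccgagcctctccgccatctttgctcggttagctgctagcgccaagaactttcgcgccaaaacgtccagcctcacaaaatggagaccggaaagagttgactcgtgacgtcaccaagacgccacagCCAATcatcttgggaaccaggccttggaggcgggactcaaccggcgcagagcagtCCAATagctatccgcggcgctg

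A match is only a match of letters and not a shown binding site. TTTGAA occurred in such a window of 8 of the 20 mitosis genes with a RefSeq promoter (40%), of 1 of 18 replication genes (5.56%) and of 13.25% of the 11332 tested genes with one. CCAAT occurred in 17 of the 20 (85%), 12 of the 18 (66.7%) and 39.77%. Over all 32851 promoters of the table the shares were 15.99% for TTTGAA and 33.85% for CCAAT. The 2 motifs do not overlap, and in the printed windows Cdc20 has 1 TTTGAA and 2 CCAAT, Ccnb1 has 2 CCAAT and no TTTGAA, and Mcm5 likewise has 2 CCAAT.

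Cdc20, which activates the anaphase-promoting complex (chromosome 4, 118432901 to 118437352), stood at 6.35, 6.38, 5.89 and 3.93 CPM in the sham libraries of day 1 and at 5.06, 5.78, 5.54 and 8.27 CPM with ozone. On day 4 the sham libraries held 3.13, 3.84 and 3.98 CPM and the ozone libraries 44.4, 47.8 and 43.3 CPM. The day 1 groups overlapped, and the 3 ozone libraries of day 4 lay far above every other library. Its log2 response was 0.14 on day 1 (adjusted p 0.71) and 3.62 on day 4, and the response difference was 3.49 ± 0.28 (SE, adjusted p 2.9e-08).

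Ccnb1, cyclin B1, the partner that activates CDK1, showed the same picture. It stood at 2.91, 3.41, 2.95 and 1.84 CPM in sham and 2.53, 3.66, 2.77 and 6.03 CPM in ozone libraries of day 1, and at 2.41, 1.23 and 2.26 and 25.6, 29.1 and 34.8 CPM on day 4, a response difference of 3.44 ± 0.42 (adjusted p 2.6e-05). Cyclin B2 (Ccnb2) rose from a mean of 2.77 ± 0.418 to 27.1 ± 0.485 CPM on day 4, with a response difference of 3.18 ± 0.41. Mki67, the proliferation antigen of all cycling phases, was already higher on day 1 (1.20) and differed by 1.78 ± 0.45 (adjusted p 0.026), a call lost without 6 of the 14 libraries in turn. Aurka, Kif2c and Cenpf, which act at the spindle pole, the centromere and the kinetochore, had response differences of 2.75 ± 0.31, 2.99 ± 0.48 and 2.81 ± 0.47. Without 1 library, 20 to 23 members of the list passed.

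The 12 largest response differences under the naming rule were mostly of cell division genes. They included Pif1, a DNA helicase, at 4.99 ± 0.88, Pimreg at 4.80 ± 0.63, Ccna1 (cyclin A1) at 4.19 ± 0.53, Hmmr (a spindle-associated hyaluronan receptor) at 3.64 ± 0.52, Cdc20, Ccnb1, Cdc20b, Kif20a (a mitotic kinesin) at 3.20 ± 0.45, Ccnb2, Knstrn (a kinetochore protein) at 3.14 ± 0.28 and Ckap2 at 3.04 ± 0.38. All of these passed without each of the 14 libraries in turn, and in each the ozone libraries of day 4 lay above those of day 1 without overlap. These genes were chosen for large differences in the same libraries, so neither point is independent evidence. Pif1 was low outside ozone day 4, with 19, 11 and 6 counts in total over sham day 1, ozone day 1 and sham day 4, against 114 over ozone day 4.

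DNA replication genes were higher with ozone on both days. Of 23 replication and G1/S genes, which license and copy DNA in S phase, 21 were higher with ozone on day 1 (median log2 1.06) and all 23 on day 4 (median 1.59), while 1 passed in the response difference (median 0.51), against 2 with DESeq2 and 3 with the 4 groups alone. That 1 was Rrm1, a subunit of ribonucleotide reductase, at 0.90 ± 0.18 (adjusted p 0.0039). Shares of all genes tested were 6.81% higher on day 1, 11.7% higher on day 4 and 2.36% higher in the response difference. Mcm5, a subunit of the replicative helicase, had means of 8.58 ± 2.47 and 30.5 ± 9.22 CPM in sham and ozone day 1 and 9.26 ± 1.64 and 45.1 ± 1.87 CPM on day 4, a response difference of 0.43 ± 0.34 (adjusted p 0.59).

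**Figure D2:**
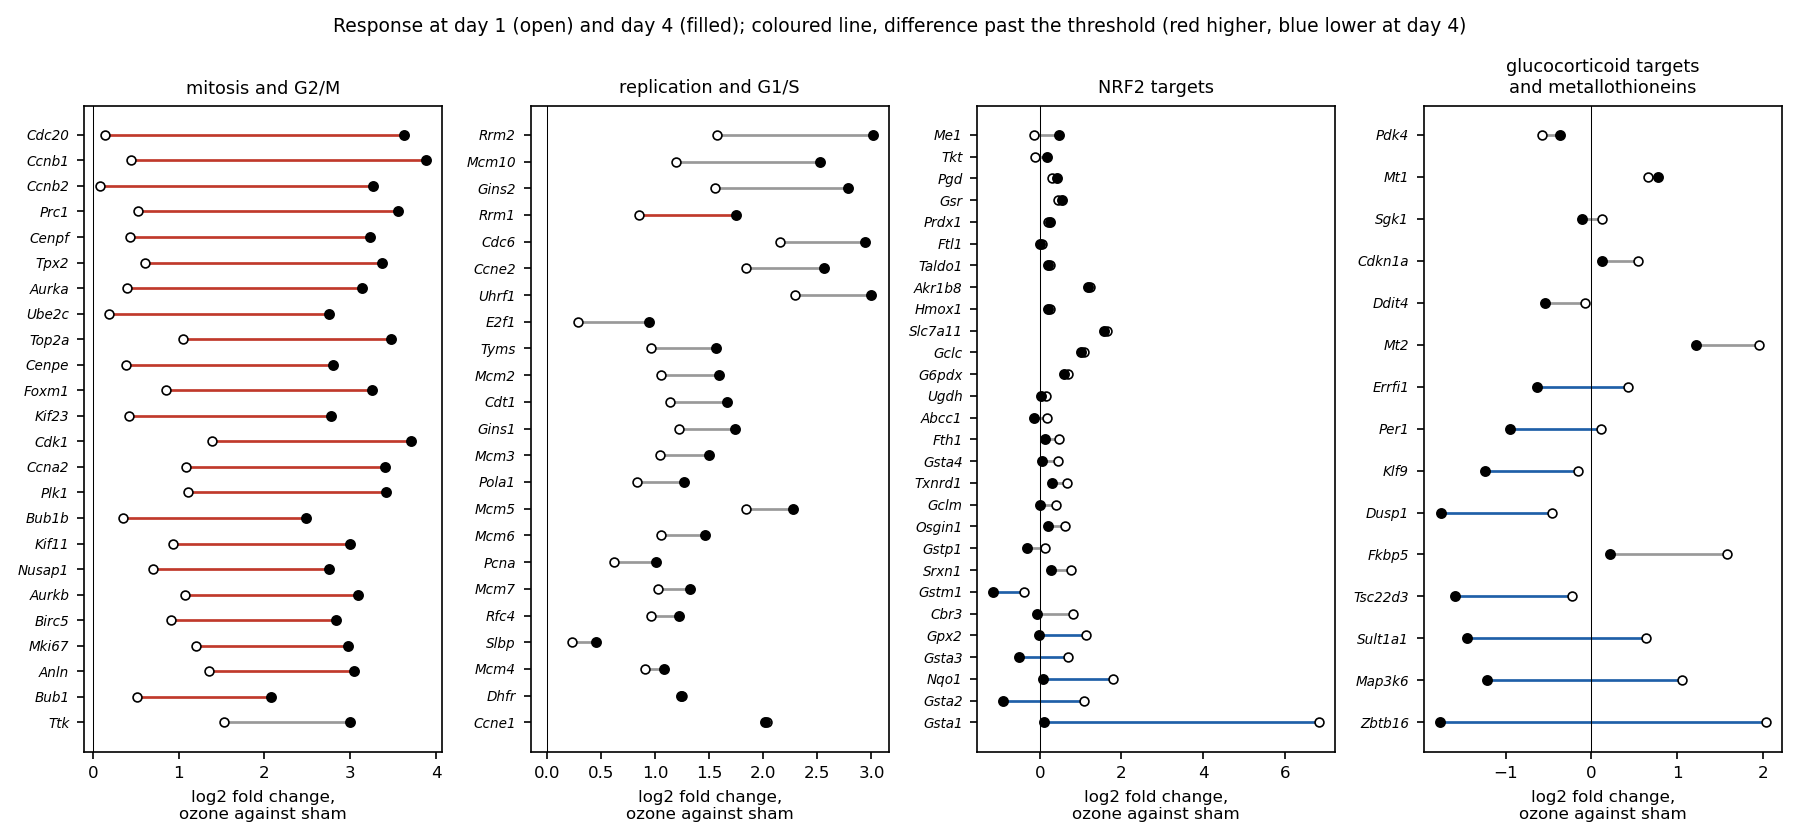
Log2 fold change of ozone against sham for each tested member of 4 gene lists, on day 1 (open) and day 4 (filled). Coloured lines mark a response difference past the threshold (red higher, blue lower on day 4): 23 of 24 mitosis genes, 1 of 23 replication genes, 6 of 28 NRF2 targets and 8 of 15 glucocorticoid targets.

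Of 12 multiciliogenesis regulators, which start the formation of multiciliated cells, 5 passed as higher in the response difference, 0 as lower and 7 did not pass (median log2 0.96). On day 4 8 of 12 were higher with ozone against 3 of 12 on day 1. Over all genes tested, 2.36% passed as higher in the response difference, 11.7% on day 4 and 6.81% on day 1. The 5 were Cdc20b and Deup1, which help to amplify centrioles, Foxn4 and Mcidas, which switch on the multiciliated program, and Plk4, the kinase that starts centriole duplication and also acts in dividing cells. Without 1 library, 5 or 6 members passed.

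Deup1 stood at 6.09, 7.86, 7.82 and 7.36 CPM in sham and 4.72, 9.20, 8.99 and 5.75 CPM in ozone libraries of day 1. On day 4 it stood at 3.49, 5.53 and 5.48 CPM in sham and 34.7, 37.6 and 23.1 CPM in ozone libraries. Day 1 groups overlapped and day 4 groups did not, and the response difference was 2.73 ± 0.38 (adjusted p 0.00011). Mcidas had means of 1.35 ± 0.830, 2.55 ± 1.37, 0.828 ± 0.361 and 12.3 ± 1.80 CPM in sham day 1, ozone day 1, sham day 4 and ozone day 4, a response difference of 2.90 ± 0.66 (adjusted p 0.011). Foxn4 differed by 2.81 ± 0.57, Cdc20b by 3.33 ± 0.74 and Plk4 by 1.17 ± 0.25. Ccno, a cyclin-like regulator of centriole amplification, was higher on both days (1.11 and 2.40), with a response difference of 1.28 ± 0.45 (adjusted p 0.11).

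Among 18 ciliated cell genes, 1 passed in the response difference (median log2 0.07). Foxj1, the regulator of motile cilia, had means of 118 ± 22.1, 108 ± 23.8, 136 ± 19.4 and 161 ± 15.7 CPM in the same 4 groups and a response difference of 0.36 ± 0.32 (adjusted p 0.64). The 1 that passed was Tuba1a, a tubulin that is not restricted to cilia, which was lower with ozone on day 1 (-0.48) and near sham on day 4 (0.07). Its call was lost without 8 of the 14 libraries in turn.

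**Figure D3:**
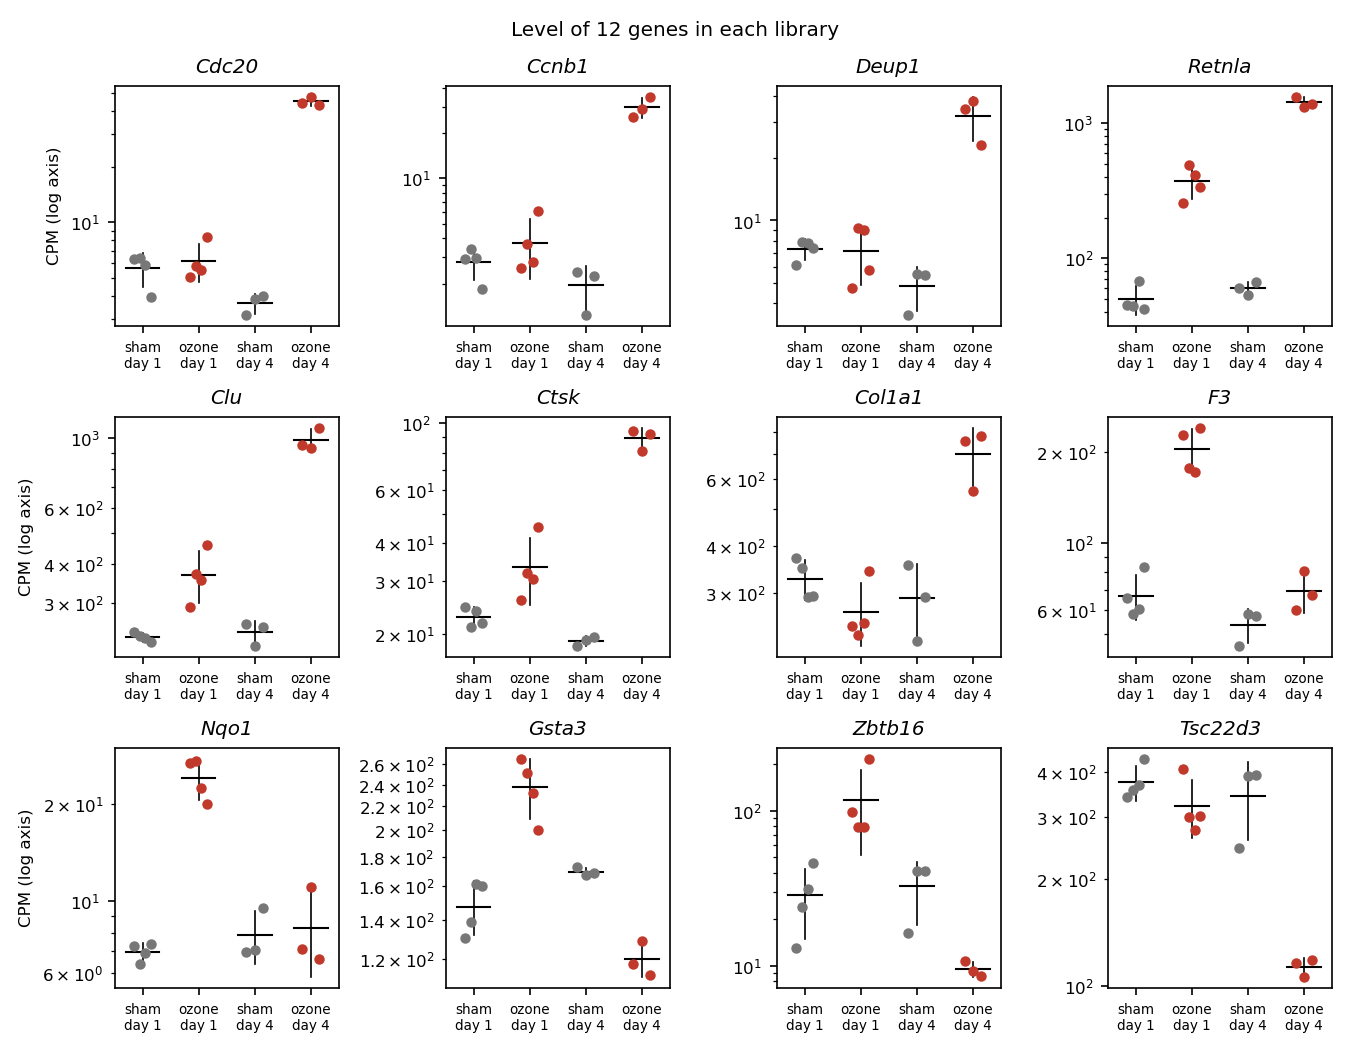
Level of 12 genes in each library in CPM (log axes that differ between panels), for sham (grey) and ozone (red) on days 1 and 4. Horizontal bars are group means and vertical bars 1 SD. Cdc20, Ccnb1, Deup1, Retnla, Clu, Ctsk and Col1a1 are highest in ozone day 4, F3, Nqo1, Gsta3 and Zbtb16 in ozone day 1, and Tsc22d3 is lowest in ozone day 4.

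Genes raised in epithelium under repair passed as higher on both days. Of 21 such genes of injured or transitional epithelium, 17 were up on day 1 (median log2 0.92) and 16 on day 4 (median 1.06). This compares with 6.81% and 11.7% of all genes tested. The median response difference of the list was 0.01. Krt8, a keratin raised in transitional alveolar epithelium, illustrates the majority: its means were 231 ± 32.2 and 442 ± 54.1 CPM on day 1 and 221 ± 13.6 and 497 ± 94.2 CPM on day 4 (response difference 0.24 ± 0.20, adjusted p 0.61). 4 members passed as higher (Clu, Itgb6, Cldn4 and Anxa1) and 2 as lower (Fosl1 and F3).

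Clu, clusterin, an extracellular chaperone, stood at 244, 236, 232 and 226 CPM in sham and 293, 372, 356 and 459 CPM in ozone libraries of day 1. On day 4 it stood at 257, 219 and 252 and 952, 929 and 1077 CPM. Ozone and sham did not overlap on either day, and the day 4 ozone libraries lay above all others, a response difference of 1.36 ± 0.17 (adjusted p 2.6e-05). Itgb6, the integrin subunit that activates latent TGF-beta in epithelium, was -0.29 on day 1 (adjusted p 0.15) and rose by 1.06 on day 4, a difference of 1.35 ± 0.19. Cldn4, a tight junction claudin, and Anxa1, annexin A1, differed by 1.37 ± 0.35 and 0.66 ± 0.17, calls lost without 6 and 8 of the 14 libraries in turn. The count of 4 dropped to 2 without sham day 1 replicate 4, sham day 4 replicate 2, or ozone day 4 replicates 2 or 3.

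F3, tissue factor, which starts coagulation, rose on day 1 (1.60), and its day 4 response of 0.37 did not pass. It stood at 66.01, 58.2, 60.7 and 83.3 CPM in sham and 227, 177, 171 and 239 CPM in ozone libraries of day 1, and at 45.6, 58.1 and 57.3 and 59.9, 80.7 and 67.1 CPM on day 4. Every ozone library of day 1 lay above all other libraries, and the response difference was -1.23 ± 0.23 (adjusted p 0.0021). In the coagulation list, 2 other members of 16 passed, both higher: Serpinb6b, a protease inhibitor, at 0.81 ± 0.16, and F7, coagulation factor VII, at 1.13 ± 0.27, the latter lost without sham day 4 replicate 3.

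Fosl1, an AP-1 subunit induced in wounded epithelium, stood at 7.76, 4.60, 1.38 and 4.06 CPM in ozone libraries of day 1 and at 0.710, 0.564 and 0.287 CPM in those of day 4. Sham libraries lay between 0 and 0.842 CPM, at or near the limit of 3 counts, so the fitted response difference of -5.14 ± 1.06 (adjusted p 0.0046) rests on 4 counts over sham day 1, 124 over ozone day 1, 15 over sham day 4 and 12 over ozone day 4. Of 16 AP-1 and immediate early genes, 2 passed, both lower, with a median log2 difference of -0.59, and 4 passed with the 4 groups alone. The other was Fosb, at -1.54 ± 0.37, which was higher on day 1 (0.91), was -0.63 on day 4 (adjusted p 0.13), and lost its call without ozone day 4 replicate 3.

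Alveolar cell genes differed at a few members. 3 of 15 alveolar type 2 genes passed, all higher (median log2 0.19), and 2 of 14 alveolar type 1 genes, both higher (median 0.07). The share passing as higher was 2.36% of all genes tested. Scd1, the desaturase that supplies monounsaturated fatty acids, stood at 2410, 3527, 3956 and 3389 CPM in ozone libraries of day 1 and 7638, 6556 and 6904 CPM in those of day 4, against 4312, 4667, 3823 and 3699 and 2587, 3849 and 2523 CPM in sham. The ozone libraries of day 4 lay above all others, and the response difference was 1.55 ± 0.36 (adjusted p 0.013). Hc, complement component 5, differed by 1.21 ± 0.26 (adjusted p 0.0076), and Lpcat1, which remodels surfactant lipid, by 0.48 ± 0.14, a call lost without 13 of the 14 libraries. In type 1 cells, Pdpn and Cldn18 differed by 0.64 ± 0.17 and 0.78 ± 0.20, calls lost without 7 and 6 of the 14. Sftpc itself had a response difference of 0.19 ± 0.19 (adjusted p 0.69).

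In club and secretory cells 1 of 19 genes passed, as lower: Gabrp, a GABA receptor subunit, at -0.69 ± 0.19, lost without 10 of the 14 libraries. With DESeq2 or the 4 groups alone 2 passed. Scgb1a1 had means of 30139 ± 4246 and 28172 ± 4616 CPM on day 1 and 43110 ± 6846 and 20819 ± 1721 CPM on day 4. It fell with ozone on day 4 (-1.05), and the response difference of -0.95 ± 0.33 did not pass (adjusted p 0.1).

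Retnla, a secreted protein of type 2 immunity and alternatively activated macrophages (chromosome 16, 48842551 to 48844461), rose on both days and further on day 4. It stood at 44.8, 44.5, 68.2 and 42.1 CPM in sham and 254, 489, 410.1 and 338 CPM in ozone libraries of day 1. On day 4 it stood at 60.2, 53.5 and 66.9 CPM in sham and 1564, 1318 and 1390 CPM in ozone libraries. No sham and ozone values overlapped on either day, and the response difference was 1.66 ± 0.29 (adjusted p 0.0014). It was the 1 member of 14 type 2 immunity genes that passed (list median 0.16).

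Of 19 phagocytic and lipid-handling macrophage genes, 7 passed as higher after 4 exposures, 0 as lower and 12 did not pass (median log2 0.50). Of 22 lysosome and proton pump genes, which act in many cell types, 6 passed as higher, 0 as lower and 16 did not pass (median 0.33). On day 1, 6 of the 19 and 1 of the 22 were higher with ozone, and on day 4 13 of the 19 and 10 of the 22. Over all genes tested, 2.36% passed as higher in the response difference, 6.81% on day 1 and 11.7% on day 4. Ctsk, a collagen-degrading lysosomal protease, stood at 24.6, 21.1, 23.8 and 21.7 CPM in sham and 25.8, 31.9, 30.3 and 45.1 CPM in ozone libraries of day 1, and at 18.2, 19.1 and 19.6 and 94.7, 81.1 and 92.3 CPM on day 4. The ozone libraries of day 4 lay above every other library, with a response difference of 1.69 ± 0.25 (adjusted p 0.00014).

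Gpnmb, a membrane glycoprotein of lipid-laden macrophages, had means of 18.4 ± 2.001 and 21.9 ± 3.14 CPM on day 1 and 12.2 ± 3.16 and 41.5 ± 8.31 CPM on day 4, a difference of 1.52 ± 0.34 (adjusted p 0.0089). The lysosomal enzymes Ctsd and Pld3 differed by 1.05 ± 0.21 and 0.74 ± 0.16. The calls of Fabp5, a fatty acid binding protein, Cd68, a lysosomal membrane protein, and Mmp12, macrophage elastase were lost without 10, 13 and 1 of the 14 libraries, at 0.61 ± 0.17, 0.90 ± 0.25 and 1.74 ± 0.43. The list count was 4 without sham day 4 replicate 2. Among lysosome genes, Ctsz and Hexa differed by 0.66 ± 0.11 and 0.66 ± 0.14, and the list held 10 with DESeq2 or the 4 groups alone and 4 without a low-count filter.

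Of 18 resident alveolar macrophage genes, 2 passed as higher and 1 as lower (median log2 0.32), against 2.36% and 1.88% of all genes tested. With DESeq2 4 were higher and with the 4 groups alone 5 were higher and 2 lower. Ear1, an eosinophil-associated ribonuclease also made by alveolar macrophages, had means of 20.5 ± 2.10, 21.7 ± 4.43 and 17.5 ± 4.57 CPM in sham day 1, ozone day 1 and sham day 4, and 6.61 ± 0.949 CPM in ozone day 4, a response difference of -1.50 ± 0.27 (adjusted p 0.0015). Olr1, a receptor for oxidized lipoprotein, differed by 1.34 ± 0.31, and Mcoln3, a lysosomal channel, by 1.49 ± 0.42, the latter lost without 12 of the 14 libraries. Ccl6, a macrophage chemokine, was the 1 of 13 CC chemokines that passed, at 1.18 ± 0.29, lost without sham day 4 replicates 2 or 3 or ozone day 4 replicates 1 or 3.

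Genes of fibroblasts and matrix were higher after 4 exposures at 6 of 23 members, with 0 lower (median log2 0.46). On day 1, 4 of 23 were higher and 2 lower with ozone, and on day 4 12 were higher and 2 lower. Over all genes tested, 2.36% passed as higher in the response difference. On day 1 6.81% were higher and 4.63% lower, and on day 4 11.7% and 9.07%. Col1a1, the alpha 1 chain of type I collagen, stood at 371, 350.4, 294 and 295 CPM in sham and 247, 232, 251 and 344 CPM in ozone libraries of day 1, and at 357, 225 and 294 and 757, 558 and 779 CPM on day 4. Ozone and sham overlapped on day 1 and not on day 4, and the response difference was 1.55 ± 0.29 (adjusted p 0.0022).

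Mmp14, a membrane protease that activates MMP2, rose from a mean of 60.8 ± 2.40 to 144 ± 10.4 CPM on day 4 and differed by 1.06 ± 0.19 (adjusted p 0.0014). The remaining 4, Col1a2, Col3a1, Col5a1 and Mmp2, differed by 1.04 ± 0.26, 1.33 ± 0.36, 1.15 ± 0.29 and 1.28 ± 0.34, calls lost without 3, 9, 4 and 10 of the 14 libraries. The count of 6 was 3 without sham day 1 replicate 1 and 2 without sham day 4 replicate 2, ozone day 4 replicate 1 or ozone day 4 replicate 3.

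Part of the NRF2 detoxification program was lower after 4 exposures. Of 28 NRF2 targets, 16 were higher and 1 lower with ozone on day 1 (median log2 0.46). On day 4 6 were higher and 3 lower (median 0.15). Shares of all genes tested were 6.81% higher and 4.63% lower on day 1 and 11.7% and 9.07% on day 4. In the response difference 6 passed as lower and 0 as higher (median -0.33), against 1.88% and 2.36% of all genes tested. Without 1 library, 4 to 7 passed as lower. With only the 4 groups in the fit 11 passed as lower. The 6 were 4 glutathione S-transferases, Gsta1, Gsta2, Gsta3 and Gstm1, which attach glutathione to electrophiles, together with Nqo1, a quinone reductase, and Gpx2, a glutathione peroxidase of epithelium. The gene that sets the rate of glutathione synthesis, Gclc, did otherwise: its means were 213 ± 18.8 and 453 ± 12.6 CPM on day 1 and 188 ± 10.1 and 378 ± 27.4 CPM on day 4, with log2 responses of 1.09 and 1.01 and a difference of -0.08 ± 0.17.

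Nqo1 stood at 7.28, 6.38, 6.92 and 7.36 CPM in sham and 26.8, 27.3, 22.4 and 20.04 CPM in ozone libraries of day 1. On day 4 it stood at 6.97, 7.07 and 9.56 CPM in sham and 7.10, 11.1 and 6.61 CPM in ozone libraries. Day 1 ozone libraries lay above all others and the day 4 groups overlapped, a response difference of -1.71 ± 0.44 (adjusted p 0.025), with -1.99 to -1.54 when 1 library was left out. The call was lost without sham day 4 replicate 3, ozone day 1 replicate 1, or ozone day 4 replicates 1 or 3.

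Gsta3 stood at 130.2, 139, 162 and 160.4 CPM in sham and 266, 252, 233 and 201 CPM in ozone libraries of day 1, and at 173, 167 and 169 and 118, 129 and 113 CPM on day 4. It was thus above sham on day 1 and below sham on day 4 with no overlap, and the response difference was -1.19 ± 0.19 (adjusted p 0.00052). Gstm1 fell on both days, with log2 responses of -0.39 and -1.13, a difference of -0.74 ± 0.15. Gpx2 rose by 1.13 on day 1 and was -0.02 on day 4, a difference of -1.15 ± 0.28, and Gsta2 differed by -1.99 ± 0.47. The Gpx2 call was lost without sham day 4 replicate 2 or ozone day 4 replicate 2, and that of Gsta2 without sham day 4 replicate 3 or ozone day 4 replicate 3.

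Gsta1 was low outside ozone day 1. Its ozone libraries of day 1 held 13.7, 11.5, 7.33 and 20.6 CPM and those of day 4 0.426, 0 and 1.44 CPM, and the sham libraries lay between 0 and 0.615 CPM. In counts, 378 fell in ozone day 1 and 3 in sham day 1, a ratio of depth-scaled counts of 133 (95% exact counting interval 45.1 to 646). The interval pools the libraries of a group and leaves out the spread between them. All 3 sham counts of day 1 lay in replicate 1. Ozone day 4 and sham day 4 held 13 counts each. The fitted response difference of -6.73 ± 1.42 (adjusted p 0.0066) rests on those few counts and its size depends on the prior count. Reads of Gsta1 and Gsta2, which are alike in sequence, are divided between them by an estimate, so their separate values are uncertain.

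Glucocorticoid targets were lower after 4 exposures at 8 of 15 members. Of 15 glucocorticoid targets and metallothioneins, 8 passed as lower and 0 as higher (median log2 -1.07), against 1.88% and 2.36% of all genes tested. On day 1, 5 of 15 were higher with ozone and 0 lower (median 0.43), and on day 4 2 were higher and 7 lower (median -0.63). Shares of all genes tested were 6.81% higher and 4.63% lower on day 1 and 11.7% and 9.07% on day 4. The 8 were Zbtb16, Map3k6, Sult1a1, Tsc22d3, Dusp1, Klf9, Per1 and Errfi1. The count was 5 without sham day 4 replicate 2, ozone day 4 replicate 2 or ozone day 4 replicate 3.

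Zbtb16, a zinc finger repressor induced by glucocorticoids (chromosome 9, 48654297 to 48836222), stood at 13.1, 24.03, 31.5 and 45.8 CPM in sham and 98.02, 78.1, 78.5 and 216 CPM in ozone libraries of day 1. On day 4 it stood at 16.2, 41.03 and 40.6 CPM in sham and 10.8, 9.26 and 8.62 CPM in ozone libraries. All ozone libraries of day 1 were above, and all of day 4 below, the sham libraries of their day. The response difference was -3.80 ± 0.91 (adjusted p 0.02), with -4.13 to -3.33 when 1 library was left out. The call was lost without sham day 4 replicates 2 or 3 or ozone day 4 replicates 2 or 3.

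Tsc22d3, which encodes the glucocorticoid-induced leucine zipper GILZ, followed another course. It stood at 341, 355, 368 and 436 CPM in sham and 409, 299, 274 and 301 CPM in ozone libraries of day 1, and at 245, 391 and 393 and 116, 106 and 118 CPM on day 4. The day 1 groups overlapped and the day 4 ozone libraries lay below all others, a response difference of -1.37 ± 0.24 (adjusted p 0.0014). Klf9, a steroid-responsive transcription factor, likewise was -0.16 on day 1 and fell by 1.24 on the log2 scale on day 4. Per1, a clock repressor with a glucocorticoid response element, differed by -1.07 ± 0.24 (adjusted p 0.011), and was the 1 of 18 core clock genes that passed, against 2 with DESeq2. Per2 rose on day 1 (1.05) and was 0.11 on day 4, a difference of -0.94 ± 0.30 (adjusted p 0.081).

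Map3k6, a stress kinase, and Sult1a1, a sulfotransferase, differed by -2.28 ± 0.41 and -2.09 ± 0.35 and passed without each library in turn. Dusp1, a phosphatase of MAP kinases, and Errfi1, an EGF receptor inhibitor, differed by -1.29 ± 0.37 and -1.06 ± 0.26, calls lost without 9 and 3 of the 14 libraries. Fkbp5, a co-chaperone of the glucocorticoid receptor, had means of 34.2 ± 11.9 and 102 ± 30.3 CPM on day 1 and 27.01 ± 4.65 and 31.2 ± 1.26 CPM on day 4, a difference of -1.36 ± 0.43 that did not pass (adjusted p 0.075). Mt2, a metal-binding metallothionein, rose on both days (1.96 and 1.22).

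Other genes among the 12 lowest response differences included Hif3a, Fam107a and Gdpd2. Hif3a, a hypoxia-inducible factor subunit that can act as a repressor, stood at 3.18, 2.82, 3.59 and 6.99 CPM in sham and 16.9, 10.3, 9.27 and 12.3 CPM in ozone libraries of day 1, and at 1.56, 5.99 and 3.87 and 0.426, 1.81 and 0.862 CPM on day 4. Ozone was above sham on day 1 without overlap and the groups overlapped on day 4, a difference of -3.33 ± 0.75 (adjusted p 0.01). Fam107a, an actin-bundling stress gene, differed by -2.63 ± 0.40, Gdpd2, a glycerophosphodiester phosphodiesterase, by -2.41 ± 0.33 and Myrip, a linker of vesicles to myosin, by -2.17 ± 0.44. Clca3a1 and Apod differed by -2.13 ± 0.51 and -2.10 ± 0.50, the first lost without sham day 4 replicate 2 and with limma-voom (-1.94), the second without ozone day 4 replicate 3. Alb, serum albumin, differed by -3.29 ± 0.92, a call lost without 11 of the 14 libraries in turn. Sham day 4 replicate 2 held 17.8 CPM against 0.721 and 0.859 in the other sham libraries of that day. Without it the difference was -0.35, and with limma-voom it was -1.60.

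Of the 30 genes that ozone moved in opposite directions on the 2 days, 24 were higher on day 1 and lower on day 4, and 6 the reverse. Besides Hif3a, Fam107a, Gdpd2, Map3k6, Myrip and Gsta3, the first group held Prdx6, a peroxiredoxin that reduces oxidized phospholipid, with means of 1022 ± 144 and 1537 ± 94.3 CPM in sham and ozone day 1 and 1176 ± 55.3 and 887 ± 45.1 CPM on day 4 (difference -0.995 ± 0.190). Among the 6 were Hexa, a subunit of a lysosomal enzyme, Mmp11, a stromal protease, at 1.36 ± 0.20, and Nrep, at 1.61 ± 0.23. Nrep stood at 76.2, 68.8, 67.4 and 64.7 CPM in sham and 38.3, 45.7, 43.6 and 32.9 CPM in ozone libraries of day 1, and at 84.4, 64.5 and 88.8 and 150.4, 119 and 153 CPM on day 4. It was lower than sham on day 1 and higher on day 4 in every library, without overlap.

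Of 23 cytokine and acute phase genes, 10 were higher and 0 lower with ozone on day 1, and 10 were higher and 2 lower on day 4. Of 13 CC chemokines, 3 were higher and 2 lower on day 1 and 2 higher and 1 lower on day 4, and of 8 CXC chemokines 1 was higher on day 1 and 2 on day 4. Shares of all genes tested were 6.81% higher and 4.63% lower on day 1 and 11.7% and 9.07% on day 4. In the response difference 1 cytokine or acute phase gene passed, as lower (list median log2 -0.25), and 3 did with DESeq2 or with only the 4 groups in the fit. The member past the threshold was Il6ra, the interleukin 6 receptor, at -1.08 ± 0.21 (adjusted p 0.0025). Lcn2, an iron-scavenging acute phase protein, rose by 2.04 and 2.09, a difference of 0.06 ± 0.32. Il33, an alarmin of epithelium, rose by 1.12 and 1.45, Timp1, a protease inhibitor, by 2.93 and 2.21, and Hpx, hemopexin, by 3.46 and 2.05. Their differences were 0.33 ± 0.25, -0.73 ± 0.42 and -1.41 ± 0.48, with adjusted p of 0.57, 0.4 and 0.096. Of 8 CXC chemokines and 10 EGF receptor ligands and receptors, 0 passed in edgeR's test, 3 and 2 had an unadjusted p under 0.05, DESeq2 called 1 and 0, limma-voom 0, and the fit of the 4 groups alone 2 CXC chemokines. Ccl2, a monocyte chemokine, differed by 0.09 ± 0.72 (adjusted p 0.97).

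Lists of neutrophil, monocyte, lymphocyte and interferon genes held 0 members past the threshold in edgeR's test of the response difference. Neutrophil genes (15), monocyte and recruited macrophage genes (17), T and NK cell genes (18), B and plasma cell genes (15) and interferon response genes (24) were these lists, with medians of 1.31, 0.72, 0.19, -0.19 and 0.43. In the same order 2, 7, 0, 0 and 6 members had an unadjusted p under 0.05. DESeq2 called 0, 1, 0, 0 and 1, limma-voom 0 in each, and the fit of the 4 groups alone 1, 0, 0, 0 and 4, all higher. Leaving out 1 library gave up to 2 interferon genes. On the single days, T and NK cell genes were lower at 12 of 18 members on day 1 and 9 of 18 on day 4, and interferon genes were lower at 13 of 24 on day 1 and 4 of 24 on day 4. Over all genes tested, 4.63% were lower on day 1 and 9.07% on day 4. S100a8, a neutrophil calgranulin, differed by 1.99 ± 1.26 (adjusted p 0.47), and its sham libraries of day 1 ranged from 6.88 to 57.1 CPM. Cd3e, of the T cell receptor complex, differed by 0.64 ± 0.55 (adjusted p 0.63).

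MHC class II and dendritic cell genes were lower on day 1 at 12 of 18 members (median log2 -0.86) and on day 4 at 6 of 18 (median -0.46), and 2 passed as higher in the response difference (median 0.50). In the same order, the shares of all genes tested were 4.63%, 9.07% and 2.36%. Cd74, the invariant chain, was -0.96 on day 1 and -0.12 on day 4 (difference 0.83 ± 0.24, adjusted p 0.048), and H2-DMb1, a peptide loader, differed by 0.89 ± 0.22. The calls were lost without 10 and 3 of the 14 libraries, and both were lost without sham day 4 replicate 2. The list count was 1 with limma-voom, without a low-count filter or with the 4 groups alone. H2-Aa, a class II chain, fell on day 1 (-1.02) and differed by 0.56 ± 0.24 (adjusted p 0.23).

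Endothelial genes were lower with ozone at 7 of 20 members on day 1 and 14 of 20 on day 4, and 3 passed as lower in the response difference (median log2 -0.34). In the same order, the shares of all genes tested were 4.63%, 9.07% and 1.88%. The summed level of the list was 4843 to 5033 CPM in ozone day 4, below 6428 to 8911 CPM in ozone day 1 and 6776 to 8939 CPM in sham day 4. The 3, Hpgd, which degrades prostaglandins, Ednrb, an endothelin receptor, and Ptprb, a vascular phosphatase, differed by -1.03 ± 0.27, -0.83 ± 0.23 and -0.94 ± 0.26. Each call was lost without 8 to 11 of the 14 libraries, and the count lay between 0 and 4 without 1 library. It was 5 with DESeq2, 6 with the 4 groups alone and 1 without a low-count filter. Gata2, a transcription factor of endothelium and the 1 of 7 eosinophil, mast cell and basophil genes that passed, had means of 141 ± 13.2, 156 ± 39.8 and 131 ± 17.1 CPM in the first 3 groups and 51.2 ± 2.51 CPM in ozone day 4, and differed by -1.49 ± 0.24 (adjusted p 0.00044), passing without each library in turn. Of 12 smooth muscle and pericyte genes 0 passed in edgeR's test, DESeq2 or limma-voom, 3 had an unadjusted p under 0.05 (median -0.41), and 1 passed with the 4 groups alone.

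Genes of red cells and heart muscle mark blood and heart tissue in a homogenate. Against 1.88% of all genes tested, 6 of 10 erythrocyte genes passed as lower in the response difference (median log2 -1.86). Their summed level was 9765 to 12780 CPM in sham day 1, 11300 to 16340 CPM in ozone day 1, 11240 to 30810 CPM in sham day 4 and 5115 to 9142 CPM in ozone day 4. Alas2, the red cell heme enzyme, differed by -2.10 ± 0.51, and Hbb-bs and Hbb-bt, beta globins whose reads cannot be fully separated, by -1.72 ± 0.44 and -1.91 ± 0.48. The count of 6 was 0 without ozone day 4 replicate 3, 1 without sham day 4 replicate 1 or ozone day 1 replicate 1, 3 without sham day 4 replicate 2, and 3 without a low-count filter. Of 10 cardiac muscle genes 0 passed in edgeR's test, DESeq2 or limma-voom, 4 had an unadjusted p under 0.05 (median -1.51), and 4 passed as lower with only the 4 groups in the fit. On day 4, 8 were lower with ozone, and Myh6, cardiac myosin, had a mean of 66.7 ± 12.98 CPM against 282 ± 90.6 CPM in sham. Blood content and the amount of heart tissue in a sample were not recorded, and their part in these values was not tested.

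Ucp1, the brown fat uncoupling protein, was the 1 of 9 adipose genes that passed. It held 563 counts over sham day 1, 2 over ozone day 1, 1 over sham day 4 and 142 over ozone day 4, and most of these lay in sham day 1 replicate 2 (78.0 CPM) and ozone day 4 replicate 1 (20.02 CPM). Its call was lost without 10 of the 14 libraries in turn.

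Other lists differed at few or no members. With 1 member past the threshold, the club, ciliated cell, core clock, cytokine and cholesterol lists lie near the 4.24% of all genes tested. Among 15 endoplasmic reticulum chaperones, Pdia3 passed as higher (0.53 ± 0.15) and Herpud1 and Xbp1 as lower (-0.64 ± 0.14 and -0.52 ± 0.13), of which Herpud1 passed without each library in turn, Pdia3 was lost without 8, and Xbp1 without sham day 4 replicate 1 or ozone day 4 replicate 2. Dhcr7, the last enzyme of cholesterol synthesis, was the 1 of 18 genes of that pathway that passed, at 0.83 ± 0.18 (adjusted p 0.008). Of 15 p53 targets, 15 ATF4 and amino acid genes, 13 heat shock genes, 19 respiratory chain genes, 8 basal cell genes, 7 mesothelial genes and 10 skeletal muscle genes, 0 passed in edgeR's test, DESeq2 or limma-voom. In the same order 0, 1, 0, 0, 2, 2 and 0 members had an unadjusted p under 0.05, and 1 ATF4 and 1 mesothelial gene passed as lower with the 4 groups alone. Cdkn1a, the cyclin-dependent kinase inhibitor p21, differed by -0.41 ± 0.34 (adjusted p 0.61). Over all 14887 genes, 2491 had an unadjusted p under 0.05 in the response difference.

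**Figure D4:**
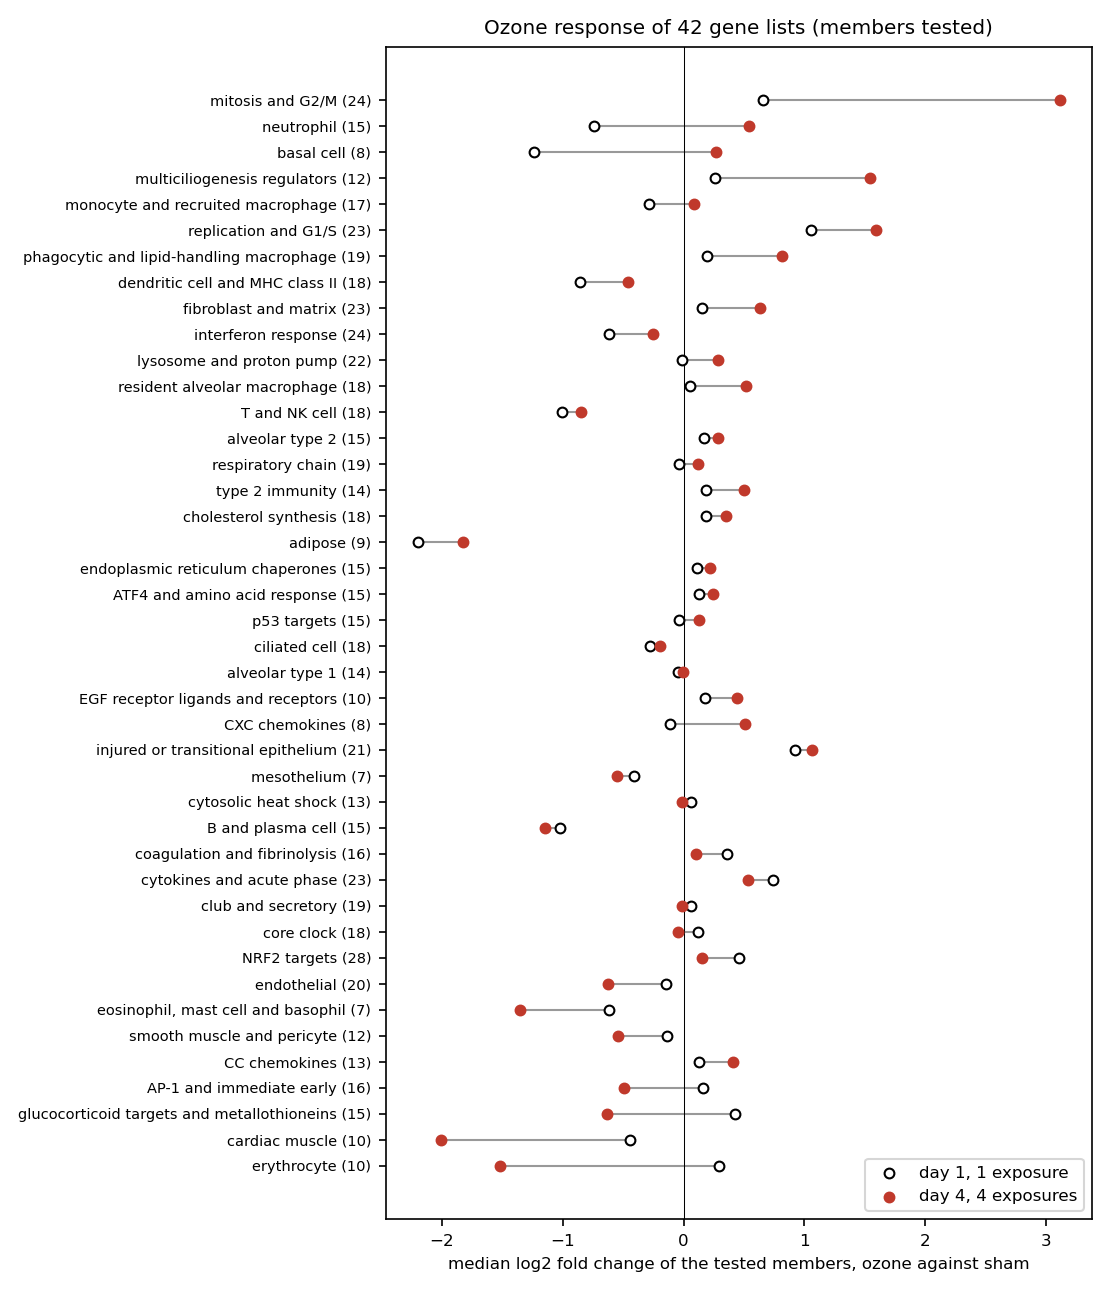
Median log2 fold change of ozone against sham over the tested members of 42 gene lists (number tested in brackets) on day 1 (open) and day 4 (filled), ordered by the median response difference, with the skeletal muscle list left out. Mitosis genes move from 0.66 to 3.11, glucocorticoid targets from 0.43 to -0.63, and injured epithelium genes stay near 1 on both days.

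In the direct comparison of ozone day 4 with ozone day 1, which shares its ozone libraries with the response difference, 2575 genes passed (17.3%), 1320 higher (8.87%) and 1255 lower (8.43%). The count of 2575 was 1613 and 1505 without ozone day 4 replicates 2 and 3. All 24 mitosis genes were higher and 0 lower (median log2 2.13), 7 of 23 replication genes were higher, 8 of 12 multiciliogenesis regulators were higher and 1 lower, and 11 of 15 glucocorticoid targets and 11 of 28 NRF2 targets were lower with 0 higher in either. Endothelial genes were lower at 9 of 20 and higher at 0.

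The 6 largest rises under the naming rule were Pif1 (3.71), Ccna1 (3.44), Pimreg (3.36), Kif2c (3.07), Ccnb1 (2.98) and Cenpf (2.91), all of cell division or DNA maintenance. The 6 largest falls were Zbtb16 (-3.62), Hif3a (-3.48), Cyp26b1 (-2.90), Fam107a (-2.89), Map3k6 (-2.73) and Gdpd2 (-2.40). Of these 12 genes, 11 also passed in the response difference, which contains the same contrast of ozone libraries, so agreement is largely built in. The exception was Cyp26b1, which degrades retinoic acid: its ozone libraries of day 1 ranged from 29.9 to 418 CPM and those of day 4 from 19.2 to 27.7, and the response difference was -1.37 ± 1.36 (adjusted p 0.69). Its call in the direct comparison was lost with limma-voom (-2.19), without a low-count filter (-2.90) and without 4 of the 14 libraries in turn. Without overlap between the days, Retnla rose by 1.93 and Tsc22d3 fell with a log2 change of -1.50. Ccl6, Hbb-bt, Alb and Ucp1 passed in the response difference but not in the direct comparison. Their direct log2 changes were 0.46, -0.89, -0.99 and 6.26, with adjusted p of 0.11, 0.074, 0.29 and 0.12 in edgeR's test.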

How the data were processed

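Whole-lung mRNA of 28 libraries in 8 groups was measured, and 14 of them, in 4 groups, enter the comparisons. Reads were quantified with Salmon 1.1.0, per the labels' protocols, and the submitters' processing notes name mm10, R 3.6.3 and DESeq2 without roles. The table deposited by the authors holds estimated counts per gene, not normalized, of which 17.7% are not whole. They were rounded here. Symbols came from GENCODE M21 for 35505 of 35880 identifiers.

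The test was edgeR's robust quasi-likelihood F test (edgeR 4.0.16, R 4.3.3) with TMM scaling and filterByExpr. All 28 libraries entered 1 fit with a mean per group (20 residual degrees of freedom). Benjamini-Hochberg adjustment ran over all 14887 genes tested, which held 99.9% of counts, with a threshold of 0.05. The fit was also run on simulated counts with the same spread for every gene, no outlying libraries and no changed genes of low count. That run does not bear on calls that depend on single libraries or low counts. TMM factors of the 14 libraries lay between 0.974 and 1.05. Levels are TMM-scaled CPM. The SE of a response difference is its absolute log2 value divided by the square root of the F statistic, not a separately fitted error.

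The comparison and the 43 gene lists (652 of 686 genes tested) were chosen with earlier results of these data known. Lists are described by counts and medians, with no set test. Genes were named by rule: the 12 largest and 12 smallest response differences past the threshold with at least 5 CPM in the highest group mean, more than 3 counts in each group and a curated symbol, the 6 largest rises and falls in the direct comparison, in every list the genes of lowest p, and a fixed set. Another 18 genes were named after their values were seen, among them Mcidas, Cldn4, Anxa1, Klf9, Dusp1, Errfi1, Gsta2, Gpx2, Prdx6, Mmp11 and Nrep. A few genes that the rule names are not reported here. Promoter sequences are from RefSeq (GRCm38.p6). Alternatives were DESeq2 1.42.0, limma-voom (limma 3.58.1), median-of-ratios scaling, 2 other filters, a fit of the 4 groups alone, a replicate block, and leaving out each of the 14 libraries.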

Additional observations from a re-analysis of the deposited data

Results flagged for a closer look

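In a group of 4 libraries, a value was singled out when its gap to the nearest other value, as a share of the group's range, exceeded Dixon's 95% critical value. This rule was met 14 times over 234 gene and group pairs looked at, and chance meets it in about 1 in 20 groups. In ozone day 1, replicate 2 was high for Pif1 (0.944 CPM), replicate 3 low for Kif2c (1.11 CPM) and Prdx6 (1396 CPM), and replicate 4 high for Krt8 (522.8 CPM), Col1a1 (344 CPM) and Zbtb16 (216 CPM). Replicate 1 of ozone day 1 was low for Cd68 (36.9 CPM) and Fabp5 (68.7 CPM) and high for Klf9 (401 CPM). In sham day 1, replicate 3 was high for Retnla (68.2 CPM), replicate 4 low for Cd68 (20.2 CPM), replicate 1 high for Gsta1 (0.397 CPM, the others at 0), and replicate 2 high for Ucp1 (78.0 CPM) and Ccl2 (1.33 CPM).

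Every gene past the threshold of the response difference was called for unequal responses on the 2 days, and the named ones are given above. Some of these calls can be false. Among the named genes, 10 also passed on each day in opposite directions. Response differences were 0.66 for Hexa, 1.61 for Nrep and 1.36 for Mmp11, which were lower than sham on day 1 and higher on day 4. They were -1.19 for Gsta3, -2.28 for Map3k6, -3.33 for Hif3a, -2.63 for Fam107a, -2.41 for Gdpd2, -2.17 for Myrip and -0.995 for Prdx6, which went the other way.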

How the results depend on the processing

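The number of genes past the threshold in the response difference was 856 with DESeq2, 607 with limma-voom, 627 with median-of-ratios scaling, 465 without a low-count filter and 656 with a stricter one, and 1125 with only the 4 sham and ozone groups in the fit, of which 614 were shared with the 631. Leaving out 1 library gave 365 to 624 for the response difference, 1505 to 2581 for ozone day 4 against ozone day 1, 904 to 1675 for the ozone response on day 1, 2109 to 3098 for that on day 4, and 0 for the sham groups. The low end for day 1 came without ozone day 1 replicate 4. With the 4 groups alone the day 1 response held 2686 genes. The causes were not tested. With replicate number within day as a block the response difference held 594 genes, 534 of them shared with the 631. For ozone day 4 against ozone day 1, this fit compares the fitted levels of replicate 1 of each day, not the group means. Its count of 1014 for that comparison is therefore not comparable with the 2575 of the main fit. The labels do not say what a replicate number stands for, and same-numbered sham and ozone libraries correlated in their deviations at 0.06 to 0.37 on day 1 and at -0.05 to 0.04 on day 4, so the numbers were not taken as pairs.

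Of the 95 named genes past the threshold in the response difference, 56 stayed past it without each of the 14 libraries in turn. Some values changed sign. Without 1 library the response difference ranged from -0.057 to 0.21 for Lcn2 and from -0.27 to 0.36 for Ccl2, and ozone day 4 against ozone day 1 from -0.22 to 0.28 for Cd3e and, lowest without ozone day 4 replicate 1, from -0.12 to 6.85 for Ucp1. Calls lost with the replicate block in the response difference were those of Alb, Cd74, Dusp1, Lpcat1 and Pdia3. For ozone day 4 against ozone day 1 the block fit compares replicate 1 levels, and there it gave 0.11 for Il33 and -0.092 for Cd3e. At these levels Alas2, Cdc20b, Cdkn1a, Cldn4, Cyp26b1, Dusp1, H2-Aa, H2-DMb1, Hbb-bs, Hpx, Lpcat1 and Xbp1 did not pass. Being another quantity, these values do not test the signs or calls between group means. The median of the eosinophil, mast cell and basophil list was -0.37 over 7 tested members and 0.59 with the 4 groups alone. The latter covers only members that passed the filter of that fit, so the medians need not be of the same genes. Groups of 3 and 4 libraries and totals of at most 9.34 M counts limit what could be detected for genes near 3 counts per library.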
